A study of Mus musculus with 77 samples.

Results

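Macrophages sorted from 7 mouse organs were compared with 4 lymphocyte populations for their microRNA (miRNA) content. The comparison used 11 of the 24 numbered miRNA libraries, in a series of 77 samples, and took every probe for a mouse miRNA (566) while leaving out the 33 viral and 4 mRNA probes of the same table. The macrophage libraries came from kidney, lung, heart, liver, spleen, gut and muscle. The lymphocyte libraries were spleen NK cells (NK1.1), B cells (B220), CD4 T cells (CD3, CD4) and regulatory T cells (Foxp3, CD4). All 11 came from C57BL/6 mice with no treatment named. The labels give for these libraries no age, no number of animals and no sorting markers for the macrophages. Each population was measured in 1 library, so the replicates of a group are different populations, and the spread within a group includes real differences between organs or lymphocyte types. Every lymphocyte library came from spleen, and the spleen library was the only macrophage library of that organ, so organ and cell type cannot be told apart for the other 6.

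Counts came from the nCounter assay, which hybridises a barcoded probe to each miRNA and counts the barcodes without amplification. The deposited value is the barcode count multiplied by 1 factor per library, here called the normalised value, and the counts themselves could be recovered from it. Macrophage libraries held 3407, 1741 and 3408 counts in muscle, liver and gut, and 4285 to 7148 in the other 4 organs. Lymphocyte libraries held 15598 to 75635 counts, so the depths of the groups did not overlap and depth and cell type cannot be told apart by these libraries alone. One count was worth 1.72 to 8.53 units of normalised value in macrophages and 0.244 to 0.918 units in lymphocytes. The limit of background in a library, set at the mean of its viral probes plus 2 SD, was 7.31 to 37.96 in macrophages and 2.95 to 5.21 in lymphocytes. The gut library stood apart, with 3 counts for the Actb mRNA probe against 55 to 635 in the other macrophages and 1108 to 6614 in lymphocytes. The differences of miR-150, miR-142-3p, let-7g, miR-15b, miR-126-3p and miR-543 are given with and without it. In bulk RNA of this kind, fewer cells that make a miRNA and less of it per cell cannot be told apart.

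The cell labels were checked in the separate samples of the same populations on the mRNA panel, which are not known to be the same RNA, and whose spleen macrophages are labelled red pulp. The marker genes used for this were chosen after their values were seen. Csf1r, the receptor for the growth factor that keeps macrophages alive, had normalised values of 328 to 1020 in macrophages and 1.96 to 71.8 in lymphocytes. C1qa, a complement gene of tissue macrophages, had 217 to 1400 in macrophages and 1.96 to 59.4 in lymphocytes. The panel values of Blnk, an adaptor of the B cell receptor, were 69.2 to 175 in macrophages, 2940 in B cells and 22.2 to 47.7 in the other 3 lymphocytes, which lay below every macrophage sample. Ccl5, a chemokine of NK and T cells, did not follow the labels in every sample, with 3970 in spleen and 92.1 to 736 in the other macrophages, against 25800 in NK cells and 12.4 to 219 in the other lymphocytes.

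A miRNA is a short RNA that guides Argonaute proteins to messenger RNAs, mainly through its seed, bases 2 to 8, and lowers their translation or stability. Blood cell types differ in a few very abundant miRNAs. miR-150, which restrains the transcription factor Myb, is abundant in mature lymphocytes, both arms of miR-142 are made across blood cells, and miR-223 belongs to granulocytes and monocytes. miR-126 lies in an intron of Egfl7 and is a miRNA of endothelial cells, and miR-125b is known from blood stem cells and from macrophages.

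The mature sequences of the miRNAs on which the comparison turned are given 5′ to 3′ with the seed in capitals, from RefSeq (GRCm38.p6). The probe names of the deposited table are older, and 20 of the 21 probes looked up matched an entry. The first set was lower in macrophages and groups by seed: miR-15b and miR-16 share AGCAGCA, and the 3 miR-29 members share AGCACCA.
miR-142-3p: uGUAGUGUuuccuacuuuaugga
let-7g: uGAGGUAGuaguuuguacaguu
miR-15b: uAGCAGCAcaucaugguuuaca
miR-16: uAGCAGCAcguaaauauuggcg
miR-342-3p: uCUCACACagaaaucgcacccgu
miR-29a: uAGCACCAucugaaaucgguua
miR-29b: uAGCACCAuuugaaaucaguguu
miR-29c: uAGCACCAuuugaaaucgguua

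The second set had higher normalised values in macrophages, and includes the other arm of the miR-142 hairpin, shown because the arms differed in opposite directions in normalised value.
miR-126-3p: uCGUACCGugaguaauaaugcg
miR-125b-5p: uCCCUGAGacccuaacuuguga
miR-223: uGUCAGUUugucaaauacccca
miR-142-5p: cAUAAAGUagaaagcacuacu

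On the plus strand of chromosome 11, miR-142-5p lies at chr11:87756867-87756887 and miR-142-3p at chr11:87756903-87756925. miR-15b (chr3:69009775-69009796) and a copy of miR-16 (chr3:69009918-69009939) are neighbours on the plus strand, and the other copy of miR-16 lies on the minus strand at chr14:61631936-61631957. miR-126-3p lies on the plus strand at chr2:26591402-26591423, let-7g on the plus strand at chr9:106178846-106178867, and miR-223 on the plus strand at chrX:96242884-96242905.

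Normalised values of miR-150, miR-142-3p, let-7g, miR-15b and miR-342-3p were far lower in organ macrophages than in lymphocytes. Those of miR-126-3p and miR-125b-5p were higher. Depth differed between the groups as well, and with depth as a covariate only miR-150, miR-126-3p and miR-125b-5p were still called. Of the 132 miRNA probes that passed the minimum (a value over 20 in at least 4 of 22 libraries), 91 (68.9%) were called at an adjusted p under 0.05 by limma. Of these, 65 (49.2%) were higher in macrophages and 26 (19.7%) were lower, with a median log2 difference of 0.85 over all 132. The minimum was easier to pass in shallow libraries, where 3 counts were worth 25.6 in liver and 23.03 in gut macrophages. In lymphocytes 3 counts were worth 0.73 to 2.75. A probe could thus pass through macrophage libraries at background and be called higher in them, so the share of higher calls is no measure of expression. The 33 probes for viral miRNAs, which mouse cells lack, had a median of 0.53 on the same scale (0.29 to 1.08), so every one of them was higher in macrophages too. Of the 65 higher calls, 23 fell within that viral range.

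The lower and the higher calls differed in their counts. All 26 lower calls were above background in all 4 lymphocyte libraries, as were uncalled probes such as miR-15a, miR-23a and let-7b. The limit was 2.95 to 5.21 in lymphocytes and 7.31 to 37.96 in macrophages, so the groups were not held to the same limit. Of the 26 lower calls, 8 were above background in fewer than 4 macrophage libraries, where the macrophage level is mostly an upper bound. Of the 65 higher calls, 32 had a mean recovered count in macrophages that was not above that in lymphocytes, and 10 had a mean over 2 times as high. Only 5 of the 65 were above background in all 7 macrophage libraries, and 33 were above it in fewer than 4. The split also moved with scaling: 1 higher and 56 lower with TMM (trimmed mean of M values), 11 and 27 with quantile normalisation, 40 and 30 when scaled to the 100 highest miRNAs, 47 and 39 with edgeR and 40 and 42 with DESeq2. The median over all tested probes shifted down with it from 0.85, to -1.27 with TMM and -0.09 with quantile normalisation. It was 0.19 when scaled to the 100 highest miRNAs, 0.77 with edgeR and 0.54 with DESeq2. The 26 lower calls stayed below 0 in each of these scalings, while 4 of the 24 higher calls that TMM tested and 1 of 65 in DESeq2 turned below 0. A downward shift can turn higher calls but hardly lower ones, so this contrast does not rank the 2 sets. Quantile normalisation kept 18 of the 26 lower calls under the adjusted p threshold.

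Further settings took the depth of the libraries into account. With log2 of the library total as a covariate, 3 probes (2.27%) were called: miR-150 lower, and miR-126-3p and miR-125b-5p higher. Since the groups do not overlap in depth, that slope comes from libraries within groups, and the value at equal depth is an extrapolation. With every library thinned to 1741 counts and raised to 1 common background, an alternative added after the data were seen, 12 of 117 probes (10.3%) were called. Of these, 10 were lower (miR-150, miR-142-3p, let-7g, miR-720, miR-15b, miR-342-3p, miR-16, miR-26b, miR-25 and miR-23b) and 2 higher (miR-126-3p and miR-543). Without the 3 shallowest macrophage libraries there were 41 calls, 28 higher and 13 lower. miR-150 and miR-126-3p were the 2 probes called in the same direction in all 31 other settings.

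**Figure D1:**
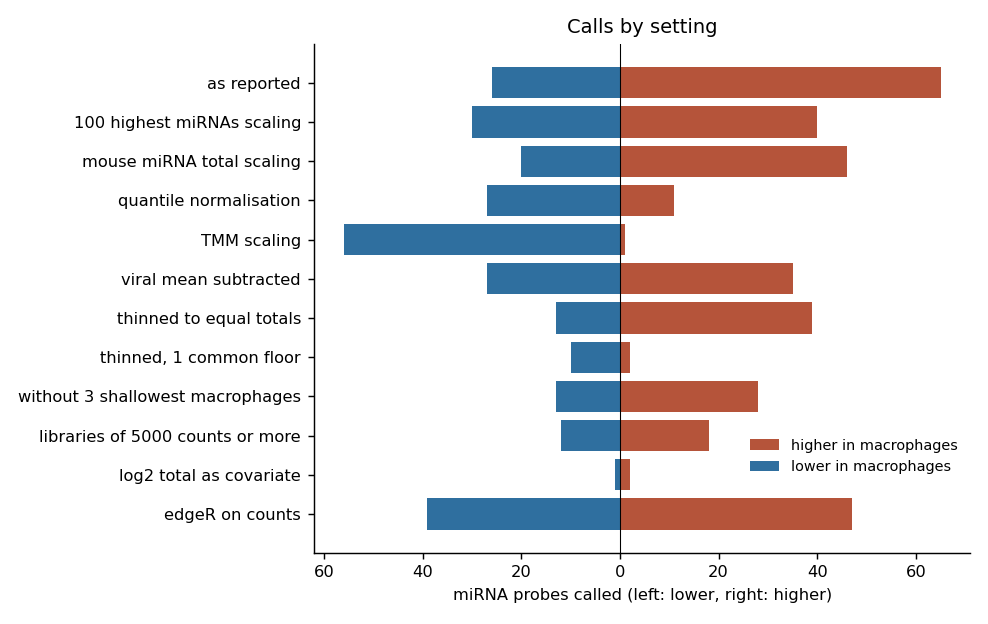
Number of miRNA probes called higher (right, red) and lower (left, blue) in macrophages than in lymphocytes under 12 settings, as counts of probes on the horizontal axis. As reported there were 65 higher and 26 lower calls. A covariate for depth left 3, and TMM scaling gave 1 higher and 56 lower.

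miR-150 had the largest lower difference. Its normalised value was 41.3 in kidney, 160 in lung, 33.6 in muscle, 8.53 in liver, 61.2 in heart, 7.68 in gut and 25.7 in spleen macrophages, against 759 in NK cells, 1594 in B cells, 2575 in CD4 T cells and 488 in regulatory T cells. All 7 macrophage values lay below all 4 lymphocyte values, and lung came nearest. The liver and gut values are 1 count each, at or under background, so they have only an upper bound. The log2 difference was -4.67 ± 0.51 (SE; n = 7 and 4, limma's adjusted p = 1.2e-10), -4.46 without gut and -3.93 with the depth covariate (adjusted p = 4e-05). Recovered counts were 1 to 86 in macrophages and 532 to 6542 in lymphocytes, and as a share of mouse miRNA counts miR-150 took 0.03% to 1.48% in macrophages and 3.33% to 15.8% in lymphocytes.

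A low miR-150 was also found in 4 spleen and bone marrow populations sorted by CD11b and Ly6C, whose depth of 5283 to 70672 counts overlapped that of the lymphocytes. There its normalised value was 8.07 to 39.57, and the log2 difference from lymphocytes was -5.23 (limma's adjusted p = 1.7e-10), where 9 of 132 probes (6.82%) were called in all. This comparison and the one with macrophages share the lymphocyte libraries. Macrophages and CD11b/Ly6C cells differed by 0.55 in miR-150 (adjusted p = 0.33), in a contrast in which 62 probes (47.0%) were called.

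miR-142-3p, an arm of a blood cell hairpin, had normalised values of 48.2 in kidney, 54.1 in lung, 11.2 in muscle, 8.53 in liver, 15.3 in heart, 7.68 in gut and 87.4 in spleen macrophages, against 372 in NK cells, 1005 in B cells, 437 in CD4 T cells and 406 in regulatory T cells. The groups did not overlap, and the 3 macrophage libraries above background were kidney, lung and spleen. The log2 difference was -3.89 ± 0.59 (limma's adjusted p = 7.9e-07), -3.73 without gut and -1.76 with the depth covariate (adjusted p = 0.17). It was called in 29 of 31 other settings, and both settings that ended the call held the depth covariate. In CD11b/Ly6C cells its value was 88.8 to 422.89, a log2 difference from lymphocytes of -1.34 that was not called (adjusted p = 0.34).

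The other arm of that hairpin, miR-142-5p, went the opposite way in normalised value but not in counts. It had 17 to 32 recovered counts in macrophages and 13 to 28 in lymphocytes, so the counts of the groups overlapped. In normalised value this became 31.0 to 184 in macrophages and 6.82 to 20.2 in lymphocytes, a log2 difference of 2.16 ± 0.54 (limma's adjusted p = 0.0016). With the depth covariate the difference was 0.28 (adjusted p = 0.86). The counts of the 3p arm were 1 to 34 in macrophages and 410 to 4122 in lymphocytes.

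**Figure D2:**
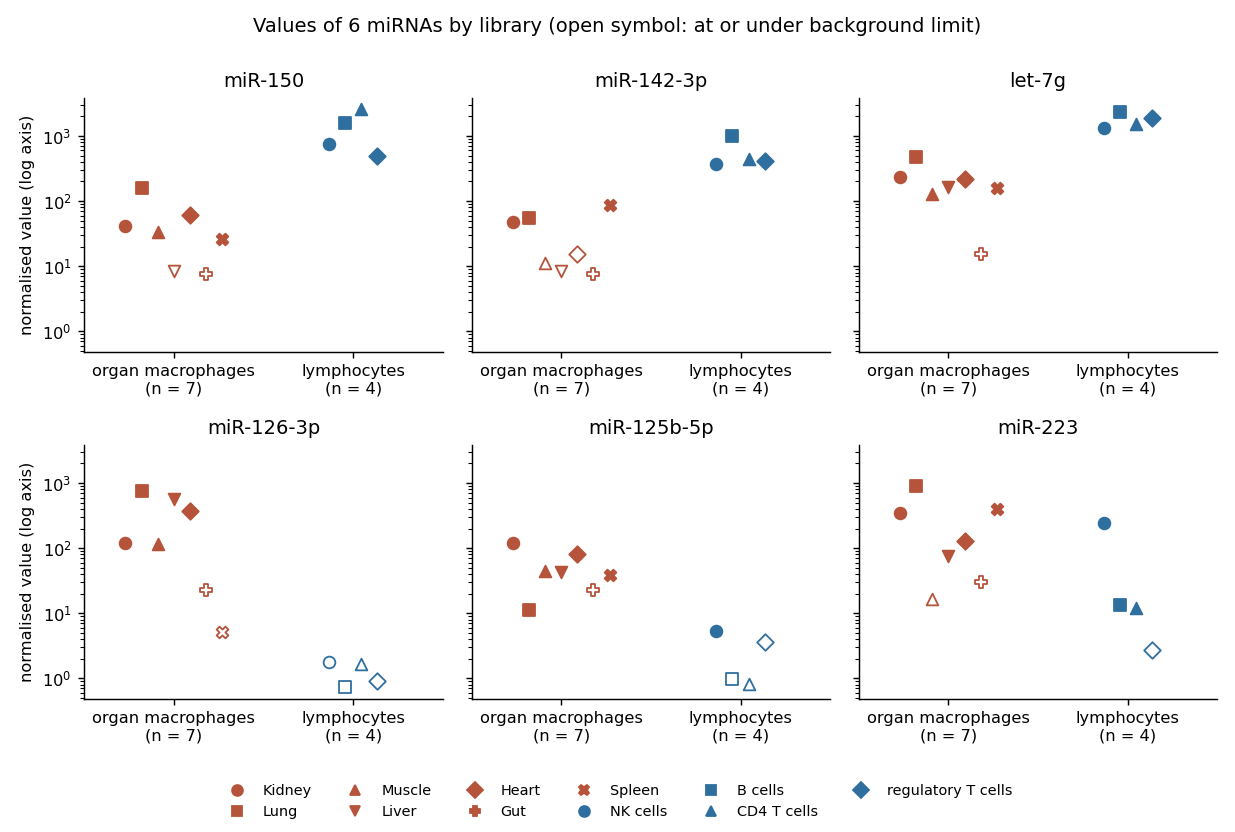
Normalised value (log axis) of 6 miRNAs in each of 7 macrophage libraries (left, red) and 4 lymphocyte libraries (right, blue), with a symbol per population and open symbols at or under the background limit of the library. miR-150, miR-142-3p and let-7g lay lower in all 7 macrophage libraries, while miR-126-3p lay above every lymphocyte library and was over background in 5 organs.

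let-7g belongs to the let-7 family, which restrains growth genes such as Hmga2 and becomes more abundant as cells mature. Its normalised value was 234 in kidney, 481 in lung, 129 in muscle, 162 in liver, 222 in heart, 15.4 in gut and 157 in spleen macrophages, against 1308 in NK cells, 2337 in B cells, 1522 in CD4 T cells and 1885 in regulatory T cells. The gut value is 2 counts and lay far under the other 6. let-7g differed by a log2 of -3.43 ± 0.67 (limma's adjusted p = 0.00011), -2.98 without gut and -1.96 with the depth covariate (adjusted p = 0.23).

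The rest of the let-7 family moved less. Of 9 members on the panel 8 were tested, 3 were lower (let-7g, let-7d and let-7i), 0 were higher and 5 did not pass, beside 19.7% lower and 49.2% higher over all 132 probes. The median of the 8 was -0.59, beside 0.85 for all 132 probes. With quantile normalisation it was -0.08, beside -0.09 for all probes tested there. Among the 34 probes that passed a minimum of 100 in at least 4 libraries, the median was -1.2. A probe high only in the 4 lymphocyte libraries could pass that minimum, so this median is no measure of abundant probes in general. The difference of let-7d was -1.35 and that of let-7i -1.44, and both calls were lost without the B cell library (limma's adjusted p = 0.095 and 0.087). That of let-7d was also lost without the NK, CD4 T, muscle, liver, gut or spleen library, and that of let-7i without muscle or gut. let-7a differed by 0.42 (adjusted p = 0.47) and let-7f by 0.01 (adjusted p = 0.98). The members differ from each other at a few bases, and whether their probes share signal was not tested.

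miR-15b and miR-16, whose shared seed targets Bcl2 and cell cycle genes, were both lower. The normalised value of miR-15b was 115 in kidney, 134 in lung, 44.8 in muscle, 42.7 in liver, 34.4 in heart, 30.7 in gut and 188 in spleen macrophages, against 271 in NK cells, 479 in B cells, 930 in CD4 T cells and 854 in regulatory T cells. The groups did not overlap, and spleen macrophages came nearest to NK cells. Its log2 difference was -2.88 ± 0.56 (limma's adjusted p = 0.00011), -2.72 without gut and -1.81 with the depth covariate (adjusted p = 0.17). miR-16 ranged from 51.2 in liver to 296 in kidney macrophages and from 662 in CD4 T cells to 1226 in B cells. Its log2 difference was -2.50 ± 0.65 (adjusted p = 0.0019) and -1.08 with the depth covariate (adjusted p = 0.55). With quantile normalisation miR-16 was not called either (-1.01, adjusted p = 0.21). In CD11b/Ly6C cells against lymphocytes neither was called, with differences of -0.25 for miR-15b and 0.12 for miR-16 (adjusted p = 0.97 for both).

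miR-342-3p lies in an intron of Evl. Its normalised value was 48.2 in kidney, 41.0 in lung, 28.0 in muscle, 8.53 in liver, 11.5 in heart, 46.1 in gut and 25.7 in spleen macrophages, against 496 in NK cells, 601 in B cells, 85.1 in CD4 T cells and 161 in regulatory T cells. The groups did not overlap in normalised value, although lymphocytes themselves spread widely and CD4 T cells were the lowest of them. As a share of mouse miRNA counts the groups overlapped, with 0.533% in kidney macrophages and 0.521% in CD4 T cells. Between the groups miR-342-3p differed by a log2 of -2.86 ± 0.58 (limma's adjusted p = 0.00016), and -1.89 with the depth covariate (adjusted p = 0.19). CD11b/Ly6C cells were low as well, at 6.36 to 32.0, a log2 difference from lymphocytes of -3.34 (adjusted p = 0.00017).

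The miR-29 family, which targets collagens and, in T cells, Tbx21 and Ifng, was lower in all 3 members. miR-29a had normalised values of 5.60 to 102 in macrophages and 170 to 385 in lymphocytes, with a log2 difference of -2.79 ± 0.59 (limma's adjusted p = 0.00029). The difference was -2.11 ± 0.60 for miR-29b and -1.53 ± 0.46 for miR-29c. The normalised values of all 3 lay wholly below those of lymphocytes, as did those of 12.9% of all 132 probes. As a share of mouse miRNA counts, miR-29b overlapped, with up to 0.647% in macrophages and from 0.607% in lymphocytes. The share of miR-29c overlapped too, with up to 0.323% in macrophages and from 0.185% in lymphocytes. With the depth covariate, miR-29a differed by -1.03 (adjusted p = 0.55), miR-29b by -0.41 (adjusted p = 0.86) and miR-29c by -0.70 (adjusted p = 0.63).

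miR-720 was among the most abundant probes of lymphocytes, and its sequence is now regarded as a likely tRNA fragment. It had 34.1 to 463 in macrophages and 1257 to 2433 in lymphocytes, and a log2 difference of -3.19 ± 0.68 (limma's adjusted p = 0.00029). miR-26b, in an intron of Ctdsp1, differed by -1.94 ± 0.49 (adjusted p = 0.0018), with 5.60 to 60.2 in macrophages and 78.9 to 204 in lymphocytes. Neither probe overlapped between the groups in normalised value. As a share of mouse miRNA counts miR-26b did, with up to 0.666% in macrophages and from 0.646% in lymphocytes. Both probes were called after thinning to a common background (-3.14 for miR-720 and -1.06 for miR-26b). Neither was called with the depth covariate, at -1.85 (adjusted p = 0.29) and -0.51 (adjusted p = 0.81). miR-720 was not called with quantile normalisation (-1.62, adjusted p = 0.073), nor miR-26b without libraries under 5000 counts (-1.11, adjusted p = 0.14).

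miR-21, which is induced in activated immune cells, varied within both groups. It had normalised values of 25.6 in liver to 224 in spleen macrophages, against 410 in NK cells, 234 in B cells, 163 in CD4 T cells and 1249 in regulatory T cells. Spleen, lung and kidney macrophages lay near or within the range of the T and B cells, and regulatory T cells were far above. miR-21 differed by a log2 of -2.15 ± 0.59 (limma's adjusted p = 0.0028), and the call ended in 6 of 31 other settings. Among these were the fit without the 3 shallowest macrophage libraries (-1.50, adjusted p = 0.06) and that with the depth covariate (-2.16, adjusted p = 0.17). Others were quantile normalisation (-1.49, adjusted p = 0.078), leaving out libraries under 5000 counts (-1.20, adjusted p = 0.22) and thinning to a common background (-1.68, adjusted p = 0.15).

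Of the miR-17-92 cluster and its paralogues, which drive lymphocyte growth and survival, 7 of 9 were tested, 5 were lower and 0 higher, beside 19.7% lower and 49.2% higher over all 132 probes. Their median was -0.96, beside 0.85 for all 132 probes. The median was -1.2 for the 34 probes that passed a minimum of 100, which probes high only in lymphocytes could pass. With quantile normalisation the median of the miR-17-92 list was -1.31, beside -0.09 for all probes tested there. With the depth covariate none of the 5 was called: the shared miR-20a and miR-20b probe stood at -0.38 (limma's adjusted p = 0.86), miR-19a at -0.68 (adjusted p = 0.6), miR-25 at -0.48 (adjusted p = 0.82), miR-106b at -0.46 (adjusted p = 0.74) and the shared miR-106a and miR-17 probe at 0.31 (adjusted p = 0.86). A probe shared by miR-20a and miR-20b differed by -2.08 ± 0.64, with 26.8 to 326 in macrophages and 248 to 578 in lymphocytes. miR-19a differed by -1.75 ± 0.43, with 5.60 to 25.6 in macrophages and 51.4 to 123 in lymphocytes. miR-25 and miR-106b, from an intron of Mcm7, differed by -1.64 and -0.86. A probe shared by miR-106a and miR-17 was called at -0.96 (limma's adjusted p = 0.048), and the call was lost without the B cell library (-0.75, adjusted p = 0.17), as was that of miR-106b (-0.67, adjusted p = 0.13). The miR-106a and miR-17 call was lost without any 1 of the other 3 lymphocyte libraries or of the lung, muscle, liver, heart and gut libraries too, and that of miR-106b without the regulatory T, kidney, lung or gut library. Of the miR-30 family 3 of 5 were tested, 1 was higher and 1 lower, beside 49.2% higher and 19.7% lower over all 132 probes. miR-30a was higher (0.89 ± 0.37), miR-30d was lower (-1.04 ± 0.40) and miR-30b did not pass (-0.42). The family median was -0.42, beside 0.85 for all 132 probes. The miR-30a call was lost without the CD4 T, regulatory T, muscle, liver or gut library, and that of miR-30d without B cells or CD4 T cells.

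Over the list of miRNAs known from lymphocytes, 13 of 16 members were tested, 9 were lower and 1 higher, and 3 did not pass, beside 19.7% lower and 49.2% higher over all 132 probes. Its median was -1.94, beside 0.85 for all 132 probes. It was -3.45 with TMM scaling, beside -1.27 for all probes tested there, and -1.78 when scaled to the mouse miRNA total, beside 0.51. The summed normalised value of the list was 444 to 1380 in macrophages and 3260 to 5480 in lymphocytes. miR-181a, which tunes T cell receptor sensitivity, differed by -1.60 ± 0.61 (limma's adjusted p = 0.021), with 15.4 to 162 in macrophages and 78.0 to 369 in lymphocytes, and that call was lost without B cells or without CD4 T cells. With the depth covariate its difference was -0.01 (adjusted p = 0.99). The higher member was miR-155.

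miR-126-3p had the largest higher difference. Its normalised value was 119 in kidney, 751 in lung, 118 in muscle, 572 in liver, 375 in heart, 23.0 in gut and 5.14 in spleen macrophages, against 1.81 in NK cells, 0.73 in B cells, 1.65 in CD4 T cells and 0.92 in regulatory T cells. It was above background in kidney, lung, muscle, liver and heart, and at or under background in gut, spleen and all 4 lymphocyte libraries, whose values are therefore upper bounds. Recovered counts were 69, 403, 21, 67 and 98 in the first 5 of these organs and 3 and 2 in gut and spleen, against 1 to 4 in lymphocytes, although the lymphocyte libraries were the deeper ones. The log2 difference was 3.69 ± 0.56 (limma's adjusted p = 7.9e-07), 4.05 without gut and 3.59 with the depth covariate (adjusted p = 0.0038).

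The organ pattern of miR-126-3p was set beside endothelial mRNAs in the panel samples of the same labels. Eng, an endothelial coreceptor that some macrophages also make, had panel values of 1180 in liver, 805 in heart and 309 in lung macrophages, 81.5 to 104 in the other 4, and 3.26 to 11.7 in lymphocytes. Cd34, carried by endothelial and progenitor cells, had another order, with 455 in heart, 298 in muscle, 163 in gut, 110 in lung, 97.9 in liver, 93.3 in spleen and 28.1 in kidney macrophages, against 0.652 to 14.4 in lymphocytes. Gut, where miR-126-3p was at background, thus exceeded lung and liver in Cd34. miR-126-5p, from the same hairpin as miR-126-3p, was above background in lung and heart macrophages and in 0 lymphocyte libraries, and was not tested since it did not pass the minimum. The part of other cells in the sorts was not tested. In CD11b/Ly6C cells miR-126-3p was 2.54 to 11.13, and macrophages exceeded them by 3.30 on the log2 scale (limma's adjusted p = 1.4e-05).

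miR-125b-5p was spread more evenly over the organs. Its normalised value was 119 in kidney, 11.2 in lung, 44.8 in muscle, 42.7 in liver, 80.3 in heart, 23.0 in gut and 38.6 in spleen macrophages, against 5.44 in NK cells, 0.97 in B cells, 0.83 in CD4 T cells and 3.67 in regulatory T cells. The groups did not overlap, 6 macrophage libraries and 1 lymphocyte library were above background, and counts were 3 to 69 in macrophages and 2 to 6 in lymphocytes. The log2 difference was 2.07 ± 0.53 (limma's adjusted p = 0.0018) and 2.96 with the depth covariate (adjusted p = 0.0038). After thinning to a common background it was 0.40 (adjusted p = 0.71), where few counts remain. It was highest in microglia, at 76.65 to 996.55, which exceeded organ macrophages by 2.30 on the log2 scale (adjusted p = 0.00019).

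Of the miR-99 and miR-125 families, often made together from shared clusters, 4 of 7 members were tested, 2 were higher (miR-125b-5p and miR-100) and 0 lower, a share of higher calls near the 49.2% of all 132 probes. The median of the 4 was 1.11, beside 0.85 for all 132. With TMM scaling, which tested 3 of them and not miR-100, it was 0.10, beside -1.27 for all probes tested there. miR-100 differed by 1.32 ± 0.39 (limma's adjusted p = 0.0051), and by 0.62 with the depth covariate (adjusted p = 0.63). miR-99a differed by 0.85 (adjusted p = 0.065) and miR-125a-5p by 0.89 (adjusted p = 0.071).

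miR-223 varied widely within both groups, which overlapped. Its normalised value was 342 in kidney, 888 in lung, 16.8 in muscle, 76.8 in liver, 129.9 in heart, 30.7 in gut and 406 in spleen macrophages, against 242 in NK cells, 13.4 in B cells, 12.0 in CD4 T cells and 2.75 in regulatory T cells. Muscle and gut macrophages were at or under background, and NK cells lay within the macrophage range. The log2 difference of 2.07 ± 0.74 (limma's adjusted p = 0.015) was lost without B cells (1.86, adjusted p = 0.061), without CD4 T cells (1.83, adjusted p = 0.053) or without regulatory T cells (1.57, adjusted p = 0.082). It was larger among the deeper libraries, at 3.97 without libraries under 5000 counts (adjusted p = 0.0026) and 3.36 without the 3 shallowest macrophage libraries (adjusted p = 0.002), and 2.31 with the depth covariate (adjusted p = 0.29). CD11b/Ly6C cells held 1762 to 11442, and macrophages lay under them by a log2 difference of -4.64 (adjusted p = 8e-06).

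Over the list of miRNAs known from myeloid cells, 10 of 12 members were tested, 3 were higher (miR-223, miR-142-5p and miR-155), 2 lower (miR-142-3p and miR-21) and 5 did not pass, beside 49.2% higher and 19.7% lower over all 132 probes. The median was 0.05, beside 0.85 for all 132. It was -0.28 when scaled to the 100 highest miRNAs, beside 0.19 for all probes tested there, and -1.53 with TMM, beside -1.27. miR-155, induced in activated immune cells, had normalised values of 111 to 837 in macrophages and 33.6 to 162 in lymphocytes, and a log2 difference of 1.64 ± 0.62 (limma's adjusted p = 0.02). Its counts were 13 to 109 in macrophages and 60 to 240 in lymphocytes. The difference was -0.02 with the depth covariate and -0.27 with TMM, and the call was lost without NK cells (adjusted p = 0.053) or without B cells (adjusted p = 0.095).

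**Figure D3:**
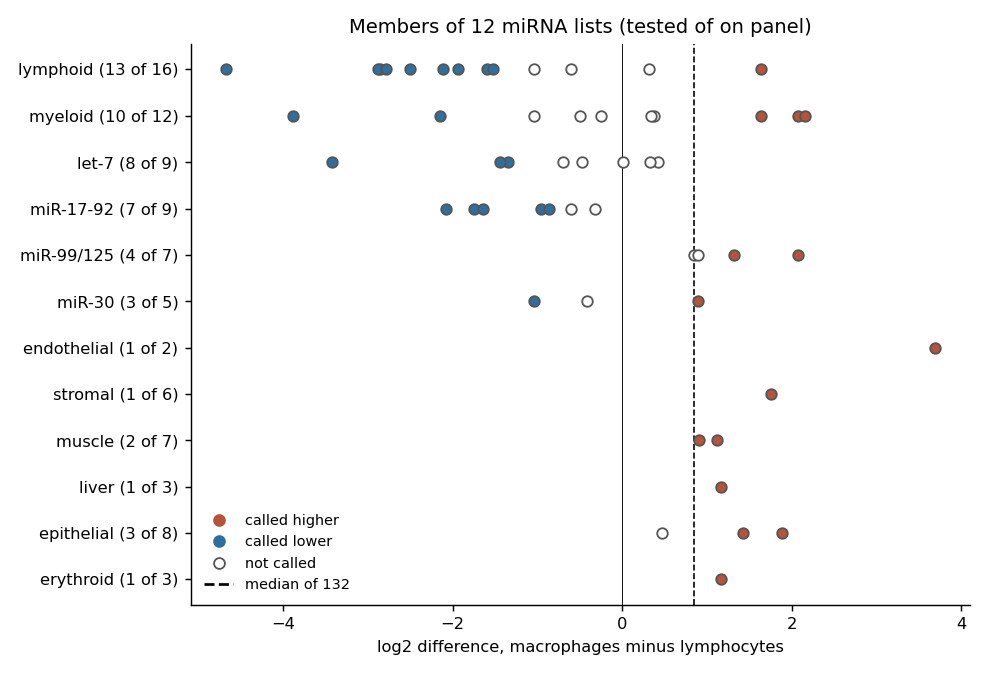
Log2 difference (macrophages minus lymphocytes) of each tested member of 12 miRNA lists, a row per list with tested and panel members, red for called higher, blue for called lower and white for not called. The dashed line marks the median of all 132 probes, 0.85. Members of the lymphoid, let-7 and miR-17-92 lists lay mostly left of it.

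Several of the largest higher differences belonged to probes whose counts overlapped between the groups although the library totals did not. miR-543, from the imprinted Dlk1-Dio3 miRNA cluster, had 30 to 165 counts in macrophages and 89 to 156 in lymphocytes, over library totals of 1741 to 75635. In normalised value it had 107 in kidney, 205 in lung, 649.6 in muscle, 256 in liver, 592 in heart, 1266 in gut and 278 in spleen macrophages, against 80.7 in NK cells, 37.1 in B cells, 63.7 in CD4 T cells and 143 in regulatory T cells. The log2 difference was 2.16 ± 0.66 (limma's adjusted p = 0.0058), 1.86 without gut and 0.05 with the depth covariate (adjusted p = 0.99).

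Counts overlapped for other probes too. miR-200b, a miRNA of epithelial cells, had 14 to 41 counts in macrophages and 21 to 42 in lymphocytes, a log2 difference in normalised value of 1.88 ± 0.51 and one of 0.05 with the depth covariate. miR-202-5p, known from gonads, had 10 to 18 counts in macrophages and 9 to 18 in lymphocytes. miR-376a, also of the Dlk1-Dio3 cluster, had 2 to 24 counts in macrophages and 8 to 20 in lymphocytes. miR-34c, which lies outside the rule for named miRNAs and was chosen after its values were seen, took 4.38% to 46.4% of the mouse miRNA counts in macrophages and 2.84% to 10.3% in lymphocytes, with the highest share in gut. Over the 22 libraries of the fit, the value of 66 of the 132 probes followed library depth within groups (adjusted p under 0.05), 46 of them with a negative slope and 20 with a positive one.

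**Figure D4:**
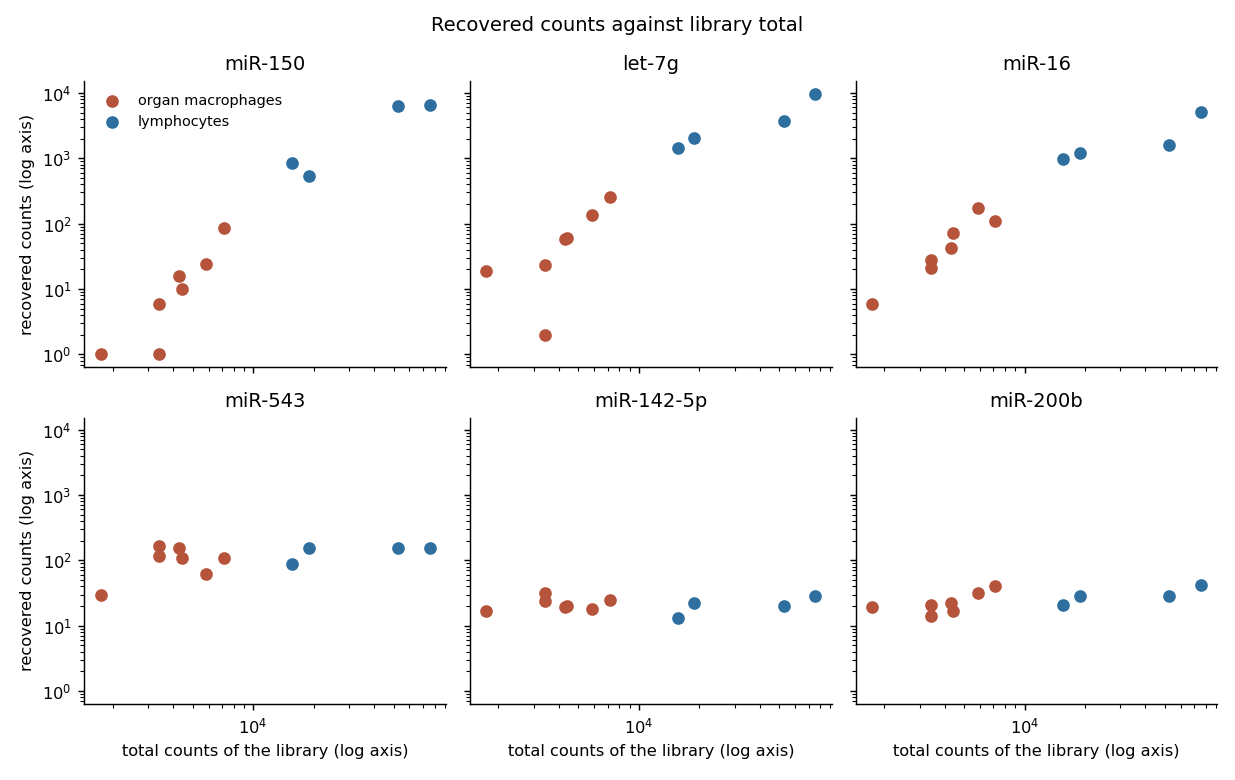
Recovered counts of 6 miRNAs against the total counts of each library, both on log axes, for 7 macrophage (red) and 4 lymphocyte (blue) libraries. miR-150, let-7g and miR-16 climbed with the library total, while counts of miR-543, miR-142-5p and miR-200b lay between 13 and 165 and overlapped between the groups.

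**Figure D5:**
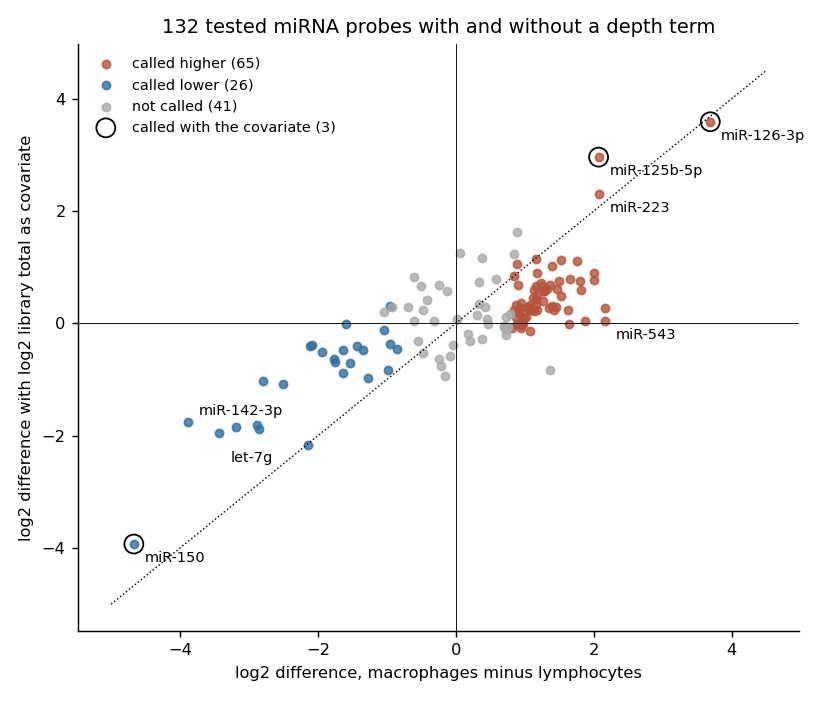
Log2 difference (macrophages minus lymphocytes) of 132 probes without (horizontal) and with (vertical) log2 of the library total as covariate, coloured by the call without it, with a dotted line of equality. Circles mark the 3 probes called with the covariate, miR-150, miR-126-3p and miR-125b-5p.

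Other probes with large higher differences had their highest counts in kidney and spleen macrophages. miR-2183 had 89 counts in spleen and 46 in kidney macrophages, 4 to 9 in the other 5 organs and 1 to 9 in lymphocytes, a log2 difference of 2.00 ± 0.51 (limma's adjusted p = 0.0018). miR-669h-5p, of the Sfmbt2 cluster, showed a like pattern, with 56 counts in spleen and 45 in kidney macrophages, 4 to 13 in the other 5 and 6 to 12 in lymphocytes. miR-380-3p followed it, with 36 counts in spleen and 38 in kidney macrophages, 1 to 8 in the other 5 and 2 to 10 in lymphocytes. With the depth covariate the differences were 0.90 for miR-2183, 0.78 for miR-669h-5p and 0.79 for miR-380-3p, none of them called (adjusted p = 0.6, 0.55 and 0.55).

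Markers of cells that a sort from solid organs could carry were read in every library. miR-199a-3p, a miRNA of fibroblasts and other stromal cells, was above background in lung, liver, heart and gut macrophages and in 0 lymphocyte libraries. It had normalised values of 6.88 to 93.9 in macrophages and 0.91 to 2.48 in lymphocytes, a log2 difference of 1.76 ± 0.38 (limma's adjusted p = 0.0003), on 3 to 20 counts in macrophages and 1 to 8 in lymphocytes. Of the other stromal markers, miR-143, miR-199a-5p and miR-214 were above background in 0 macrophage libraries, and miR-145 was above it in kidney, lung and heart. The stromal list summed to normalised values of 25.7 to 137 in macrophages and 8.28 to 12.9 in lymphocytes, and to overlapping counts of 10 to 38 in macrophages and 13 to 34 in lymphocytes. The endothelial list summed to 7.71 to 800 in macrophages and 0.97 to 2.89 in lymphocytes, on 3 to 429 counts in macrophages and 2 to 7 in lymphocytes. miR-199a-3p differed by 1.11 with the depth covariate (adjusted p = 0.29).

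Markers of parenchymal cells and red cells were read in the same way. miR-122, the hepatocyte miRNA, had 6 counts in liver macrophages, its only macrophage library above background, 1 to 4 in the other 6 and 1 to 3 in lymphocytes. The other members of the liver list did not follow it. miR-192 was above background in 0 macrophage and 3 lymphocyte libraries, and miR-194 in gut macrophages and 3 lymphocyte libraries. miR-1, of skeletal and heart muscle, had 9 counts in heart, 6 in muscle and 5 in gut macrophages, its 3 macrophage libraries above background. It had 1 to 3 counts in the other organs and 3 to 6 in lymphocytes. Its normalised value was highest in gut, at 38.38, against 34.4 in heart and 33.6 in muscle macrophages. miR-133a was above background in 0 macrophage and 2 lymphocyte libraries, and miR-133b in 0 macrophage libraries and 1 lymphocyte library. miR-206 was above it in liver macrophages only, and miR-208b and miR-499 in 0 libraries of either group. Of the epithelial list 3 of 8 members were tested, with miR-200b and miR-205 called higher, beside 49.2% higher over all 132 probes. Its median was 1.43, beside 0.85 for all 132. The list summed to normalised values of 87.4 to 315 in macrophages and 30.2 to 48.6 in lymphocytes. Its summed counts ran the other way, at 34 to 77 in macrophages and 42 to 187 in lymphocytes. miR-208a, of heart muscle, had 37 counts in spleen and 25 in kidney macrophages and 1 in heart. miR-451, of red cells, had 1 to 32 counts in macrophages, highest in kidney, and 1 to 34 in lymphocytes, highest in NK cells. Of the other red cell markers, miR-144 was above background in 0 macrophage libraries and 1 lymphocyte library. miR-486 was above it in lung macrophages and 1 lymphocyte library. miR-122, miR-1, miR-208a and miR-451 were each called higher in normalised value, as were 49.2% of all 132 probes. Their differences were 1.16, 0.91, 1.12 and 1.16, beside the median of 0.85 for all probes. The call of miR-1 was lost without the muscle, heart, gut, NK, B or CD4 T library, that of miR-208a without the spleen or the B cell library, and that of miR-451 without B cells or CD4 T cells.

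The macrophage libraries also varied more among themselves than the lymphocyte libraries did. Across the 566 mouse probes, the correlation of log2 values between library pairs was 0.45 to 0.88 for macrophages and 0.92 to 0.94 for lymphocytes, as a description, since probes are not replicates and shallow libraries hold more probes at background. Lung macrophages correlated most with lymphocytes (0.76 to 0.83), and liver macrophages least (0.32 to 0.38). Lung was the deepest and liver the shallowest of the macrophage libraries. Across the 132 tested probes, the 7 macrophage values lay wholly above the 4 lymphocyte values for 29 (22.0%) and wholly below for 17 (12.9%), 46 in all (34.8%), and all 17 that lay below were among the 26 lower calls.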

How the data were processed

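The authors' deposited miRNA values are a normalised signal: nCounter barcode counts times 1 factor per library, given to 2 decimals. What the factor rests on is not given here by label or header. All values (100%) came out as whole counts within 0.1 of a count, and the lowest recovered count was 1, so 0 and 1 could not be separated. The mRNA panel's deposited values are likewise a signal scaled by the authors. Per the labels' protocols, the mirVana kit was used to extract total RNA. In all, 42 columns of the deposited tables (12 of the miRNA table, 24 of the panel and 6 arrays) were not used here.

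Libraries were grouped by their titles. log2(value + 10) of the 132 mouse miRNAs over 20 in at least 4 of 22 libraries was fitted with limma 3.58.1 (R 4.3.3; lmFit, eBayes with a trend, 4 groups including microglia from 7 sites and 4 CD11b/Ly6C populations), with Benjamini-Hochberg adjustment over all 132. Adding 10 shrinks the differences of low values. Probes at background still came out higher in macrophages on this scale, as the viral probes did (0.29 to 1.08), so small higher differences are not conservative. The other 434 miRNAs were not tested. edgeR 4.0.16 on the recovered counts called 86 probes (quasi-likelihood test) and DESeq2 1.42.0 called 82. On simulated data with 20 of 132 miRNAs changed, limma called 25.5% of those changed 2-fold, 93.5% of those changed 4-fold and 100% of those changed 8-fold in this contrast. Of the calls, 8.93%, 3.11% and 4.31% were false. The simulation drew normal noise without a depth difference or a background floor, so its rates do not cover either. Named miRNAs are the 12 most positive and 12 most negative calls, both markers (miR-150 and miR-142-3p) and called members of the lists. The populations, lists and rules were chosen with earlier results of these data known. Alternatives were other pseudocounts, minimums, scalings, background handling, depth treatments, tools and left-out libraries. With 1 library per population, p-values measure the spread between populations of a group. Counts are of single molecules without amplification, and their counting error was not modelled by limma.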

Additional observations from a re-analysis of the deposited data

Results flagged for a closer look

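Of 82 sets of values examined (41 named miRNAs in 2 groups), 7 held a library whose gap to its nearest neighbour was large against the range of its group. Chance alone gives about 1 in 20. The B cell library, the deepest of all, was far from the other lymphocytes for 5 miRNAs. Its miR-142-3p was 1004.61 against 371.76 to 437.28 in the other 3, its let-7i 298.8 against 158.77 to 171.37, its joint miR-106a and miR-17 probe 73.12 against 35.54 to 37.18, and its miR-106b 46.31 against 21.76 to 23.97. Its miR-202-5p was low, at 2.92 against 7.44 to 8.26. Among macrophages, let-7g was low in gut (15.35, or 2 counts, against 128.8 to 481.1 in the other 6), and miR-16 was low in liver (51.19, or 6 counts, against 156.79 to 295.95). Gut was the library with almost no mRNA probe counts, and liver was the shallowest.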

How the results depend on the processing

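Of the 41 named miRNAs over 31 other settings, 1228 values could be had: 973 kept their call, 247 kept the direction but lost it and 8 turned sign. Those 8 were miR-155 (-0.27 with TMM, -0.02 with the depth covariate and -0.02 with values also raised to background), the joint miR-106a and miR-17 probe (0.31 with the covariate and 0.37 with both), miR-181a (0.09 with both) and miR-30a (-0.34 with TMM and -0.05 with DESeq2). The 91 calls became 398 with no minimum (372 higher), 25 with a minimum of 100, 38 with quantile normalisation, 57 with TMM, 3 with the depth covariate, 30 without libraries under 5000 counts, 52 after thinning, 3 with raised background and covariate, 12 after thinning to a common background and 41 without the 3 shallowest macrophage libraries. Leaving out 1 library gave 62 (without B cells) to 97 calls. Probes whose groups did not overlap, 46 as reported, were 193 with no minimum, 15 with a minimum of 100, 26 with quantile normalisation, 72 with values raised to background, 28 after subtraction of the viral mean, 21 after thinning and 9 after thinning to a common background. Leaving out 1 library gave 46 to 57 of them. The cause was not tested for any of these, except that a minimum and a thinning change how many probes are tested. No paired analysis was possible because each population was measured once and the groups share no animal or batch label. Of 566 miRNAs, 62 to 151 were above background in a macrophage library and 118 to 162 in a lymphocyte library.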

Other observations

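A dendritic cell and a neutrophil library of the same table, each the only one of its kind and so in no comparison, can be read beside these groups. Their totals of 3703 and 2827 counts fall within the range of the macrophage libraries. miR-150 was 16.8 in dendritic cells (4 counts) and 273 in neutrophils (56 counts), against 7.68 to 160 in macrophages and 488 to 2575 in lymphocytes. miR-126-3p was 4.19 in dendritic cells and 4.87 in neutrophils, 1 count in each. miR-223 was 373 in dendritic cells and 326 in neutrophils, both under the lowest CD11b/Ly6C library (1762). miR-543 had 114 and 111 counts in these libraries and miR-142-5p had 21 in both, within the range of counts in macrophages.

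In microglia, miR-342-3p stood at 153 to 1013, above every organ macrophage library (8.53 to 48.2), and organ macrophages differed from microglia by -3.26 on the log2 scale (limma's adjusted p = 1.1e-06).

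The comparison has 1 library per population. No age, animal number or macrophage gate is given in the labels, and all lymphocytes are from spleen. Depth does not overlap between the groups. Many macrophage values lie at background, where they have no order.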
